A study of Mus musculus with 4 samples.

Results

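The mRNAs of the nuclear-encoded subunits of the respiratory chain were measured in cultures labelled as oligodendrocytes, from conditional knockouts of Zdhhc5, an enzyme that attaches palmitate to proteins, and from controls. Members were taken by gene name (Nduf with a, b, c, s or v, Sdha to Sdhd, Uqcr, Cyc1, Cycs, Cox4 to Cox8 and Atp5). The deposited table held 68 of them among 6940 genes. The GENCODE M21 annotation has 96 protein-coding entries with such names, a second entry called Atp5o included, and the other 28, among them Cycs, Ndufs1 and Cox5a, were not analysed here. Mitochondria make most of a cell's ATP with the respiratory chain, a set of protein complexes in the inner mitochondrial membrane. Complexes I and II pass electrons from NADH and succinate to ubiquinone, complex III passes them to cytochrome c, complex IV reduces oxygen, and complex V, the ATP synthase, uses the resulting proton gradient. Most subunits are encoded in the nucleus and imported, and a small set is encoded in the mitochondrial genome.

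The conditional knockout cells, called cKO, had the genotype Olig1cre/+;Zdhhc5fl/fl, a design in which Cre recombinase made from the Olig1 locus is meant to delete the floxed Zdhhc5 alleles in the oligodendrocyte lineage. Control cells were Zdhhc5fl/fl and had no Cre. There were 2 libraries per genotype, and the labels do not say whether they came from separate cultures or animals, so p-values measure only the spread between these libraries, which may be technical. Cells of both genotypes were C57BL/6 precursors from cortices taken at postnatal day 5, enriched by immunopanning with GalC and O4 antibodies. They grew for 6 days and were harvested 24 h after a switch to differentiation medium, in which T3, a thyroid hormone, was at 40 ng/mL. The cKO cells alone carried Cre and a changed Olig1 allele, and effects of these and of the Zdhhc5 deletion cannot be told apart. The level of Zdhhc5 was not analysed here, so the genotype labels were not checked by it.

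Values are normalised reads, which are reads of a gene divided by 1 size factor per library. The listed genes held 13672254 to 20068016 reads per library in cKO and 16773675 to 17077509 in controls. The table lists only genes that the authors called, with an adjusted p of at most 0.0499 in the authors' deposited table, and members outside it were not analysed here. Defining oligodendrocyte genes were present in every library, and all 12 of 12 on the list were lower in cKO, with a summed level of 88345 to 89356 normalised reads in cKO and 377231 to 378782 in controls. Of 12 astrocyte markers 11 were listed, 9 higher and 2 lower, with summed levels of 764521 to 771559 in cKO and 511353 to 512203 in controls. These sums exceed those of the defining oligodendrocyte genes in both genotypes, and Gfap, an astrocyte filament protein, alone had 557247 and 553584 normalised reads in cKO and 351481 and 352111 in controls, so the cultures were not oligodendrocytes alone. Of 12 pericyte and fibroblast markers 9 were listed, all 9 higher, with summed levels of 11909 to 12317 in cKO and 3808 to 4001 in controls. The table held 6 of 12 microglia markers, all 6 higher, with sums of 2934 to 3171 in cKO and 1893 to 1952 in controls. It held 11 of 12 neuron markers, 9 of them higher and 2 lower, their sums being 18618 to 18868 in cKO and 19234 to 19686 in controls. Of endothelial markers it held 5 of 10, 3 higher and 2 lower, at sums of 403 to 434 in cKO and 455 to 457 in controls. Of 6 precursor markers it held 5, 2 higher and 3 lower, at sums of 48285 to 49036 in cKO and 56526 to 57114 in controls. None of the listed markers was at 0 in any library. The part of these cell types in the results on the respiratory chain was not tested, and in bulk RNA a change in the number of cells of a type cannot be told apart from a change in RNA per cell.

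Nearly every listed subunit mRNA was somewhat more abundant in cKO than in control cells. Of 68 members 67 were higher and 1, the complex I assembly factor Ndufaf4, was lower (limma, adjusted p under 0.05), against 46.7% of all listed genes higher and 53.3% lower. The median log2 fold change was 0.32, with quartiles of 0.24 and 0.40, against a median of -0.22 over all listed genes. The groups overlapped in none of these members, the cKO libraries being above the control libraries in 67 and below them in 1, as holds for 46.7% and 53.3% of listed genes. Because only called genes were listed, 100% of the 6940 genes passed in limma, so that a pass adds nothing for a member and only its direction and size are informative. A rise of at least 1.5-fold was seen in 3 members, Ndufa12, Cox6b2 and Cox7a1, against 17.4% of listed genes, and a fall of that size in 0 members, against 27.6%. Apart from those 3 genes and Ndufaf4, the members' log2 fold changes ran from 0.15 to 0.52. The low end of this range depends on the listing of called genes only, as members with smaller differences can be missing from the table.

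**Figure D1:**
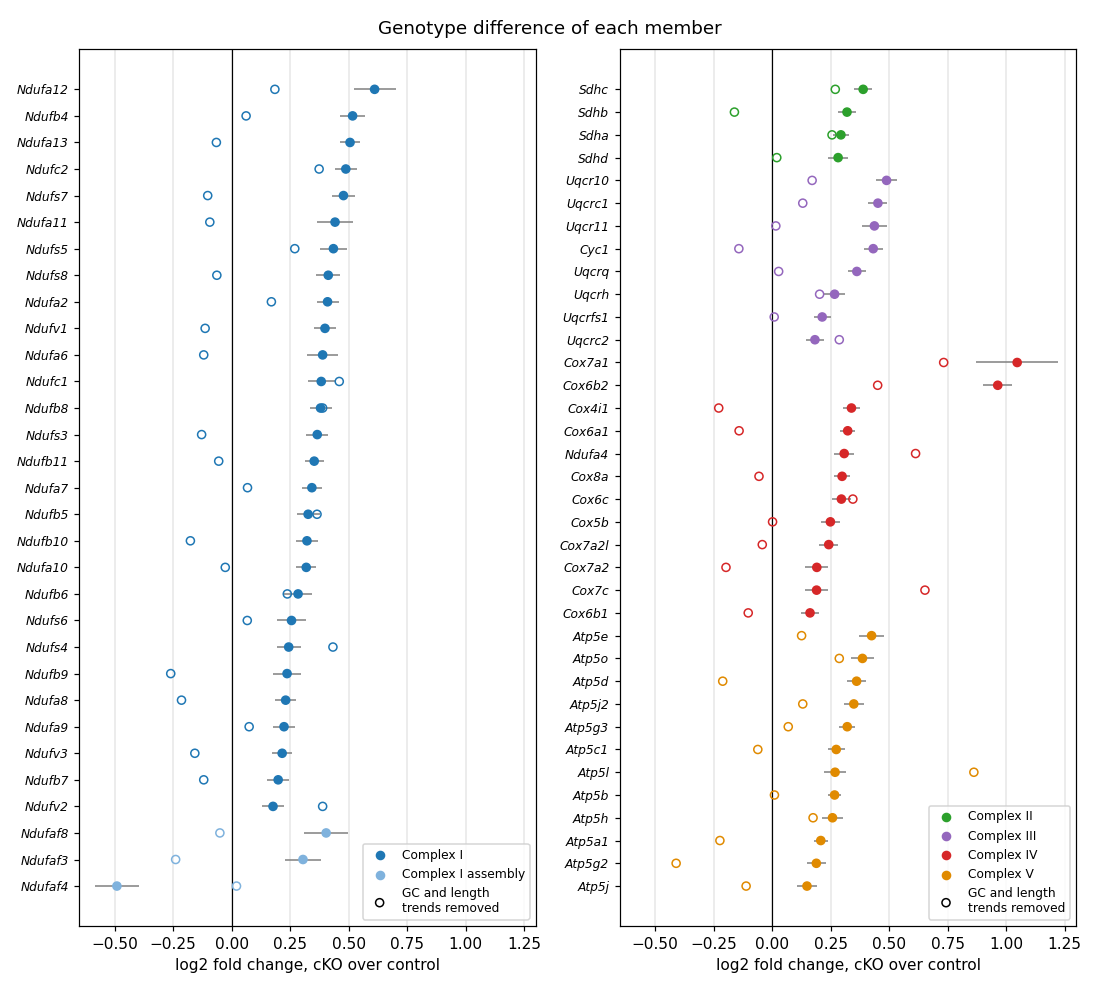
Each row is 1 member (1 listed member is not shown), grouped by complex and ordered by its log2 fold change, cKO over control (filled points, with the SE from limma, 2 libraries per genotype). Open points give the same quantity with the trends with GC content and gene length removed. Filled points lie right of 0 in every row but that of Ndufaf4, and open points in 38 rows.

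Across the whole table, short and GC-rich genes were more often higher in cKO and long and AT-rich genes more often lower. Of listed genes that are not members, 76.7% were higher among those of 1000 to 2000 bases (median log2 fold change 0.40) and 18.0% among those over 10000 bases (median -0.53). Members are short, with a median length of 1710 bases against 4892 over all listed genes, and have a median GC content of 51.4% against 49.4%. After removal of both trends, that with GC content and that with length, from each library, 24 members were higher and 17 lower, 27 were not called, and the median log2 fold change was 0.02, against -0.08 over all listed genes, of which 28.8% were higher and 41.7% lower. With GC content alone removed, 37 members were higher and 7 lower, with a median of 0.14, against 29% higher and 40.4% lower of listed genes. Scaling by relative log expression factors over the listed genes left 67 higher and 1 lower, against 46.8% and 42% of listed genes, and raised the median to 0.51. Members themselves were higher at lengths, and at GC contents, where other genes were mostly lower, each trait taken alone. Of those of 4000 to 6000 bases, all 5 were higher, against 45.3% of other listed genes, and of those of 45 to 50% GC, all 20, against 37.5%. Genes were not matched for both traits at once, so members in a range of GC content can still be shorter than the genes beside them.

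Within the group the rank correlation with GC content was lower than over all listed genes, a difference that was not tested. Across the 68 members Spearman's rho between log2 fold change and GC content was 0.36, and across 6934 listed genes 0.51, both across genes of the same 4 libraries, which are not independent replicates. AT-rich members stood furthest from other genes of like GC content, which were not matched to them in length. At a GC content of up to 40%, 2 of 3 members were higher, against 5.0% of other listed genes. Between 40 and 45%, all 5 members were higher, their median log2 fold change being 0.24, against 12.6% of other listed genes, whose median was -0.55. Between 55 and 60%, all 12 members were higher, with a median of 0.40, and so were 78.8% of other genes, also with a median of 0.40. The 8 members of up to 45% GC were Cox7c (38.4% GC), Ndufaf4 (39.5%), Atp5l (39.8%), Ndufa4 (40.3%), Ndufv2 (42.0%), Ndufs4 (43.1%), Ndufc1 (44.1%) and Uqcrc2 (44.4%), of which Ndufaf4 was the one lower. Removal of a GC trend raises AT-rich genes and lowers GC-rich genes by construction. With both trends removed the members' log2 fold changes ran against GC content (Spearman's rho -0.72 across 68 members, against 0.06 across 6934 listed genes). On that scale, high values of AT-rich members are not evidence of a rise, nor are low values of GC-rich members evidence of a fall.

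**Figure D2:**
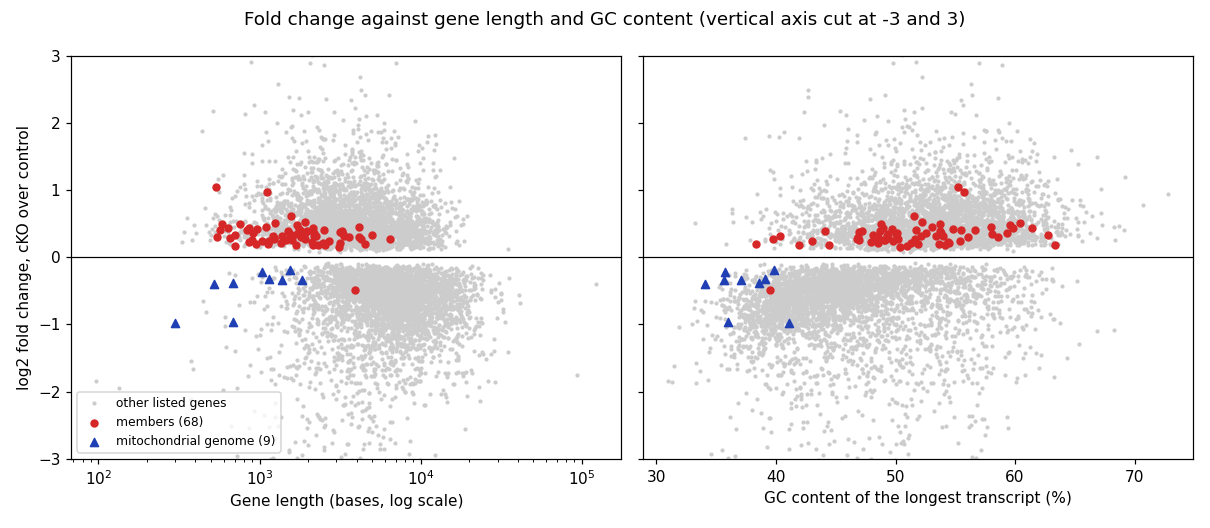
Log2 fold change, cKO over control, against gene length (left, log axis) and GC content of the longest transcript (right), for all listed genes (grey), the 68 members (red) and 9 genes of the mitochondrial genome (blue triangles). The band without points around 0 arises because only called genes are listed. Members lie above 0 at all lengths and GC contents except for 1 gene, and the triangles lie below 0 at GC contents around 37.1%.

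Complex I is the NADH dehydrogenase and the largest complex of the chain. All 29 listed subunits were higher in cKO, their median log2 fold change being 0.35. The median was -0.03 with both trends removed, and 9 were higher and 6 lower, against 28.8% and 41.7% of listed genes. Core nuclear subunits of complex I carry the flavin and iron-sulfur clusters. Ndufs7, which holds the last iron-sulfur cluster before ubiquinone (chromosome 10, 80249121 to 80256794 of GRCm38), had 2710 and 2529 normalised reads in cKO libraries 1 and 2, against 1932 and 1829 in controls 1 and 2. It was the highest rise of the core, at 0.48 ± 0.05 SE on the log2 scale (adjusted p of 1.25e-08 in limma), and -0.10 with both trends removed. Ndufv1, which binds NADH, had 4172 and 3785 in cKO against 3085 and 2944 in controls, 1.32-fold higher, and -0.11 on the log2 scale with both trends removed. Ndufs8, an iron-sulfur subunit, had 2803 and 2539 in cKO against 2040 and 1967 in controls, 1.33-fold higher. Ndufs3 had 2503 and 2456 in cKO against 1970 and 1877 in controls, 1.29-fold higher. With both trends removed Ndufs8 was at -0.06 on the log2 scale, not called, and Ndufs3 at -0.13, called lower. Ndufv2 had 3272 and 3646 in cKO against 3165 and 2949 in controls. Its call was lost without cKO library 2 or control library 2. Its lower cKO value exceeded its higher control value by little, the log2 fold change being 0.18. This became 0.39 with both trends removed, called higher. At 42.0% GC that value is not evidence of a rise, as removal raises AT-rich genes by construction.

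Accessory subunits surround the core of complex I, and all 23 listed were higher, their median log2 fold change being 0.34. The median was 0.07 with both trends removed, and 8 were higher and 4 lower, against 28.8% and 41.7% of listed genes. Ndufa12, a subunit of the matrix arm (chromosome 10, 94198720 to 94221443), had 1860 and 1429 normalised reads in cKO against 1183 and 962 in controls. The groups did not overlap, but it was among the members with the widest spread, at 1644 ± 305 in cKO and 1073 ± 156 in controls (SD, n = 2 each), and its 1.53-fold rise (log2 fold change 0.61, SE 0.09) was not called with both trends removed (0.18, adjusted p 0.181). Ndufb4, of the membrane arm, had 1984 and 2154 in cKO against 1467 and 1421 in controls, 1.43-fold higher, and 0.06 on the log2 scale with both trends removed. Ndufa13, also known as the cell death regulator GRIM-19, had 3433 and 3468 in cKO against 2457 and 2403 in controls, with close replicates in both genotypes. It was 1.42-fold higher, with a value of -0.07 once both trends were removed, and 30.0% of its exonic bases overlap Tssk6 on the other strand. Ndufc2 and Ndufs4, named after their values were seen, had positive values on both scales. Ndufc2 kept most of its rise, with 2854 and 3042 in cKO against 2155 and 2047 in controls and a log2 fold change of 0.49, 0.37 with both trends removed. Ndufs4, whose loss is used as a mouse model of Leigh syndrome, had 2058 and 2115 in cKO against 1828 and 1698 in controls. Its log2 fold change of 0.24 was 0.43 with both trends removed, which at 43.1% GC is not evidence of a larger rise. At the low end stood Ndufb7, at 2218 and 2175 in cKO against 1912 and 1915 in controls, 1.15-fold higher.

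The name rule also takes in assembly factors, which build complex I and are not part of it, and 3 of 8 were listed. Ndufaf4 (chromosome 4, 24898083 to 24905001) was the only listed member lower in cKO, with 325 and 331 normalised reads in cKO against 491 and 433 in controls, 1.41-fold lower (-0.49 ± 0.10 SE on the log2 scale, adjusted p of 1.11e-04 in limma). It is among the most AT-rich members, at 39.5% GC, and its log2 fold change was 0.02 with both trends removed, not called. Ndufaf8 had 517 and 495 in cKO against 354 and 412 in controls, and Ndufaf3 had 720 and 688 in cKO against 562 and 577 in controls. These rises of 1.32-fold and 1.24-fold became -0.05 and -0.24 on the log2 scale with both trends removed.

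Complex II, succinate dehydrogenase, also serves in the citric acid cycle and is the complex made wholly of nuclear-encoded subunits. All 4 subunits were listed and higher, their median log2 fold change being 0.31. The median was 0.14 with both trends removed, and 2 were higher and 1 lower, against 28.8% and 41.7% of listed genes. Sdhc, a membrane anchor with part of the ubiquinone site (chromosome 1, 171127165 to 171150603), had 5395 and 5398 normalised reads in cKO against 4022 and 4221 in controls. It was 1.31-fold higher (0.39 ± 0.04 SE on the log2 scale, adjusted p of 6.16e-09 in limma) and stayed higher at 0.27 with both trends removed. Sdha, the flavoprotein that oxidises succinate, had 10227 and 10803 in cKO against 8545 and 8598 in controls, 1.23-fold higher, and 0.26 on the log2 scale with both trends removed. Sdhb, the iron-sulfur subunit, had 5631 and 5467 in cKO against 4335 and 4559 in controls, 1.25-fold higher, and turned to -0.16 with both trends removed. Sdhd, the other anchor, had 3240 and 3314 in cKO against 2726 and 2665 in controls, and its 1.22-fold rise was 0.02 on the log2 scale with both trends removed.

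Complex III, the cytochrome bc1 complex, had a median of 0.40 on the log2 scale over 8 listed subunits of 9 annotated, all higher. The median was 0.08 with both trends removed, and 4 were higher and 1 lower, against 28.8% and 41.7% of listed genes. The differences between complexes were not tested. Uqcr10, a small subunit (chromosome 11, 4701973 to 4704342), had 3130 and 3236 normalised reads in cKO against 2339 and 2198 in controls, 1.40-fold higher and 0.17 on the log2 scale with both trends removed. Uqcrc1, a core protein outside the electron path, had 8707 and 7873 in cKO against 6001 and 6101 in controls (0.45 ± 0.04 SE on the log2 scale, adjusted p of 9.31e-10 in limma), and 0.13 with both trends removed. Its partner Uqcrc2 rose least, with 4714 and 4742 in cKO against 4073 and 4257 in controls, 1.14-fold higher. Uqcrc2 has 44.4% GC and was at 0.29 on the log2 scale with both trends removed. Of its exonic bases 19.7% overlap Pdzd9 on the other strand. Of the subunits that carry electrons, Cyc1, or cytochrome c1, had 5630 and 5252 in cKO against 4063 and 3997 in controls, 1.35-fold higher. Uqcrfs1, the Rieske iron-sulfur protein, had 5706 and 5600 in cKO against 4876 and 4872 in controls, 1.16-fold higher. With both trends removed Cyc1 turned to -0.14, called lower, and Uqcrfs1 was at 0.01. Uqcr11, a small subunit, had 4228 and 4757 in cKO against 3525 and 3113 in controls, and Uqcrh, the hinge protein, had 4220 and 4606 in cKO against 3571 and 3758 in controls. These rises of 1.35-fold and 1.20-fold were 0.02 and 0.20 on the log2 scale with both trends removed, and Uqcrq was 1.29-fold higher.

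**Figure D3:**
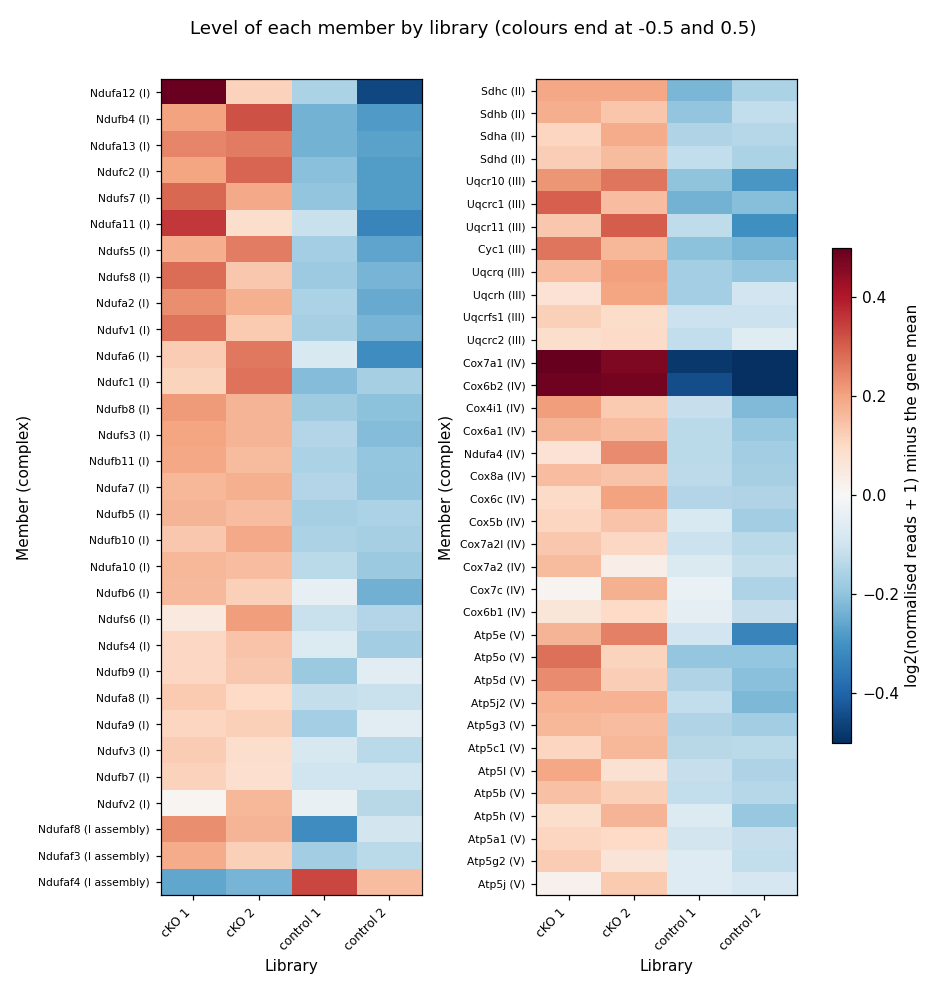
Rows are members and columns the 2 cKO and the 2 control libraries, and colour gives log2(normalised reads + 1) minus the member's mean over the 4 libraries, red above and blue below, with colours ending at 0.5 in either direction. Both cKO columns are redder than both control columns in every row but that of Ndufaf4, which has the reverse pattern, and 1 listed member is not shown.

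Complex IV, cytochrome c oxidase, held the largest rises, in isoforms best known from other tissues. All 12 listed members of 19 annotated were higher, their median log2 fold change being 0.30. The median was -0.02 with both trends removed, and 5 were higher and 4 lower, against 28.8% and 41.7% of listed genes. Cox6b2, known as the testis isoform of subunit 6b (chromosome 7, 4751792 to 4753094), had 1460 and 1451 normalised reads in cKO against 766 and 726 in controls. It was 1.95-fold higher (0.96 ± 0.06 SE on the log2 scale, adjusted p of 1.73e-12 in limma) and stayed higher with both trends removed (0.45, adjusted p 1.25e-06). Cox7a1, the isoform of heart and skeletal muscle (chromosome 7, 30184144 to 30186078), was the least abundant complex IV member, with 145 and 134 in cKO against 69.0 and 65.2 in controls. It was 2.08-fold higher (1.05 ± 0.18 SE on the log2 scale, adjusted p of 1.77e-05 in limma), 0.73 with both trends removed. The ubiquitous forms rose far less. Cox6b1 had 5733 and 5890 in cKO against 5317 and 5074 in controls, 1.12-fold higher, and Cox7a2 had 2738 and 2511 in cKO against 2332 and 2260 in controls, 1.14-fold higher. Both were called lower with both trends removed, at -0.10 and -0.20 on the log2 scale.

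Within a pair of isoforms the scaling between libraries cancels, although differences in their length and GC content remain. In reads per kilobase, Cox6b2 made up 13.8% ± 0.28 of the sum of Cox6b2 and Cox6b1 in cKO and 8.40% ± 0.04 in controls (SD, n = 2 each). Cox7a1 made up 8.59% ± 0.03 of the sum of Cox7a1 and Cox7a2 in cKO and 4.90% ± 0.09 in controls (SD, n = 2 each). In both pairs the groups were separated by far more than their spread, although an exact two-sided permutation test of 2 against 2 libraries cannot go below p = 0.333. The share of Cox7a2l, a relative of Cox7a2 that takes part in joining complexes III and IV, in its sum with Cox7a2 was 54.2% ± 1.14 in cKO and 53.4% ± 0.25 in controls (SD, n = 2 each), and 1 cKO library lay within the control range. Atp5g2 and Atp5g3 encode the same mature subunit c of ATP synthase with different import sequences. Here Atp5g2 made up 46.3% ± 0.58 of the pair in cKO and 48.6% ± 0.46 in controls (SD, n = 2 each), a small difference without overlap. Smooth muscle and pericyte genes moved in the same direction as Cox7a1, Acta2 being 2.61-fold and Kcnj8 2.85-fold higher in cKO, and the part of such cells in the Cox7a1 value was not tested.

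**Figure D4:**
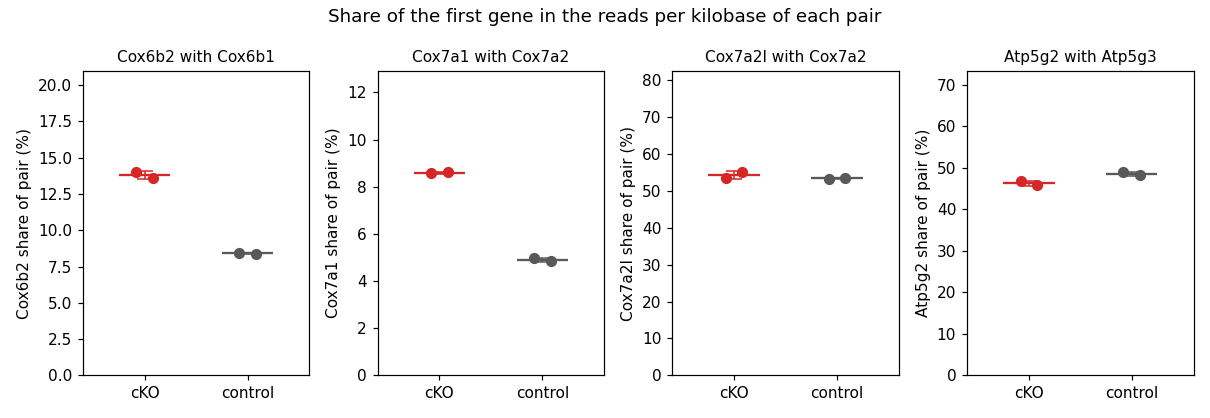
Share of the first gene of each pair in the summed reads per kilobase of the pair (per cent), by genotype. Points are libraries, lines means and bars SD (n = 2 each). The Cox6b2 and Cox7a1 shares are 13.8% and 8.59% in cKO, above 8.40% and 4.90% in controls.

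Other complex IV members rose together by modest amounts. Cox4i1, the subunit through which ATP inhibits the enzyme, had 13481 and 12778 normalised reads in cKO against 10764 and 10002 in controls, 1.26-fold higher (0.34 ± 0.04 SE on the log2 scale, adjusted p of 2.56e-08 in limma), and turned to -0.23 with both trends removed. Cox6a1 had 13799 and 13649 in cKO against 11182 and 10757 in controls, 1.25-fold higher, and turned to -0.14. Cox5b, which binds zinc, had 4111 and 4220 in cKO against 3627 and 3385 in controls, 1.19-fold higher, and was at 0.00 with both trends removed. Ndufa4, named for complex I and since assigned to complex IV, had 5189 and 5806 in cKO against 4494 and 4371 in controls, 1.24-fold higher. Cox7c, with 4944 and 5535 in cKO against 4781 and 4397 in controls, was 1.14-fold higher. Both are AT-rich and went up to 0.61 and 0.65 on the log2 scale with both trends removed. Without control library 2 the calls of Cox7c and Cox6b1 were lost. Cox8a had 9361 and 9293 in cKO against 7671 and 7491 in controls, and Cox7a2l had 3814 and 3732 in cKO against 3218 and 3163 in controls. They were 1.23-fold and 1.18-fold higher, with log2 values of -0.06 and -0.04 with both trends removed. Cox6c was 1.23-fold higher.

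Complex V, the ATP synthase, held the members with the most reads. All 12 listed of 18 annotated were higher, the median of their log2 fold changes being 0.27. The median was 0.04 with both trends removed, and 4 were higher and 4 lower, against 28.8% and 41.7% of listed genes. Atp5b, the catalytic beta subunit (chromosome 10, 128083273 to 128090391), had 45211 and 44301 normalised reads in cKO against 37470 and 36912 in controls. This 1.20-fold rise (0.27 ± 0.03 SE on the log2 scale, adjusted p of 1.21e-08 in limma) was larger than the spread in either genotype, and was 0.01 with both trends removed. Atp5a1, the alpha subunit, had 27362 and 27223 in cKO against 23834 and 23417 in controls, 1.16-fold higher, and turned to -0.22, called lower. Atp5d, or delta, had 6291 and 5823 in cKO against 4808 and 4617 in controls, 1.28-fold higher, and Atp5e, or epsilon, had 4059 and 4299 in cKO against 3378 and 2867 in controls, 1.34-fold higher. Atp5o, which links the catalytic head to the peripheral stalk, had 3700 and 3307 in cKO against 2675 and 2679 in controls, 1.31-fold higher. Of its exonic bases 12.3% overlap the second Atp5o entry on the same strand, and 17.5% and 18.1% overlap antisense genes. With both trends removed the log2 fold changes of Atp5d, Atp5e and Atp5o were -0.21, 0.13 and 0.29. Atp5c1, or gamma, had 6796 and 7093 in cKO against 5735 and 5750 in controls, 1.21-fold higher, and -0.06 on the log2 scale with both trends removed. Of the subunit c genes, Atp5g3 had 7562 and 7485 in cKO against 6072 and 5975 in controls, 1.25-fold higher. Atp5g2 had 5098 and 4884 in cKO against 4471 and 4286 in controls, 1.14-fold higher, and turned to -0.41 with both trends removed, called lower. Atp5j, coupling factor 6, had the smallest rise of all members, with 3477 and 3751 in cKO against 3281 and 3233 in controls (log2 fold change 0.15, limma adjusted p 0.0061), and was -0.11 with both trends removed. This call too was lost without cKO library 2 or control library 2. Its exons overlap those of Gabpa on the other strand over 12.7% of its length, and the strand setting of the counts is not given in the sources used here.

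Summed over members, the genotypes differed in each complex by more than the spread between libraries. Complex V summed to 120757 ± 972 normalised reads in cKO and 100448 ± 1849 in controls (SD, n = 2 each), 1.20-fold higher. Complex I summed to 78665 ± 516 in cKO and 62561 ± 1511 in controls (SD, n = 2 each), 1.26-fold higher, and complex III to 41956 ± 45.3 in cKO and 32848 ± 164 in controls (SD, n = 2 each), 1.28-fold higher. Complexes II and IV were 1.25-fold and 1.23-fold higher. The sums are not per length, and Atp5b and Atp5a1 hold most of that of complex V. Per kilobase of gene length the most abundant members were Cox6a1, at 19550 ± 150 normalised reads per kilobase in cKO and 15626 ± 428 in controls, and Cox8a, at 17114 ± 87.9 in cKO and 13910 ± 233 in controls (SD, n = 2 each). Atp5b followed, at 10563 ± 152 in cKO and 8778 ± 93.1 in controls. The least abundant per kilobase were the assembly factor Ndufaf4, at 84.1 ± 1.1 in cKO and 118 ± 10.6 in controls, and Cox7a1, at 261 ± 14.9 in cKO and 125 ± 5.1 in controls (SD, n = 2 each). Lengths are those of all exons of a gene joined, and exons that a tissue does not use lower the value on this scale.

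The promoters of members were read for letters of factors known to act on respiratory genes, NRF1, the ETS factor GABP (also called NRF2) and YY1. Sequences came from RefSeq (GRCm38.p6) and covered the 250 bases before the start of a gene, which were on hand for 58 of 68 members. The palindromic NRF1 motif, in capitals at its place in the Cox6a1 window, was present in 6.9% of these members, against 1.9% of listed genes and 0.9% of all 27025 genes of the sequence table. The letters CCGGAAG, for ETS factors, were present on either strand in 22.4% of members, against 13.5% and 7.8%, and AAGATGGC, for YY1, in 1.7%, against 2.1% and 1.8%. The ETS letters end as the YY1 letters begin, so that these matches can overlap, and a match describes letters only. Below are the window of Cox6a1, which held NRF1 letters 162 bases and ETS letters 16 bases before the start, of Sdhd, with ETS letters at 46 bases, of the largest rises, Cox6b2 and Cox7a1, and of Ndufaf4, the member lower in cKO, with NRF1 letters at 113 bases. Capitals mark the matches, and the Cox6b2 and Cox7a1 windows have none.
Cox6a1 (chr5:115348959-115349208, minus strand): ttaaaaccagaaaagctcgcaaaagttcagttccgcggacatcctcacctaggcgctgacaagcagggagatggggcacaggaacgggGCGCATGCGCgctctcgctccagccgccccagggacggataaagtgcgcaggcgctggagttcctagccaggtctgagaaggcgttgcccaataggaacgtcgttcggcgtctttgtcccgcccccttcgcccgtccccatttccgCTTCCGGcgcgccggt
Sdhd (chr9:50603850-50604099, minus strand): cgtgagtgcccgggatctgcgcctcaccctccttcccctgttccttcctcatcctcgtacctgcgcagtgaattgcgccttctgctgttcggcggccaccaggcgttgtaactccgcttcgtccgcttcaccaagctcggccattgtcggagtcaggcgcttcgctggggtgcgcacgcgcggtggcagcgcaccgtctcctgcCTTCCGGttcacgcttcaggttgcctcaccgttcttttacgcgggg
Cox6b2 (chr7:4753095-4753344, minus strand): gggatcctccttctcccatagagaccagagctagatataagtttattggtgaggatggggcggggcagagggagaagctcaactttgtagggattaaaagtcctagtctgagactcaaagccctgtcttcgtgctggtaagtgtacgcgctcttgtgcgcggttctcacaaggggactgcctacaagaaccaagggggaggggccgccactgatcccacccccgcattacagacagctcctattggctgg
Cox7a1 (chr7:30183921-30184170, plus strand): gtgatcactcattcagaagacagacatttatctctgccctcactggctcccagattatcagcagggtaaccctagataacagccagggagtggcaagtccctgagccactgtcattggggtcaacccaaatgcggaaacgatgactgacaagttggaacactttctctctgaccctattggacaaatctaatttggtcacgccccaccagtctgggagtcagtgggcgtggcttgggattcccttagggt
Ndufaf4 (chr4:24897833-24898082, plus strand): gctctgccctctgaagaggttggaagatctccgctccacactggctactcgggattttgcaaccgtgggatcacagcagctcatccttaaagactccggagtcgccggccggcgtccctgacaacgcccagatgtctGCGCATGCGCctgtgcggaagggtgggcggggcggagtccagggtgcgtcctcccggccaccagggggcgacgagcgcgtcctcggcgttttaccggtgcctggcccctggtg

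Of 15 genes on a list of regulators of mitochondrial genes 4 were listed, where 40.0% of the genes behind the authors' adjustment are listed. Of these 1 was higher and 3 were lower, against 46.7% and 53.3% of listed genes, and with relative log expression factors 1 was higher and 2 lower. Gabpa, the DNA-binding subunit of GABP, had 1081 and 1050 normalised reads in cKO against 1669 and 1612 in controls, 1.54-fold lower (-0.62 ± 0.06 SE on the log2 scale, adjusted p of 9.77e-10 in limma), and -0.15 with both trends removed. Its partner Gabpb1 had 321 and 348 in cKO against 517 and 472 in controls, 1.48-fold lower, and -0.28 on the log2 scale with both trends removed. Yy1 had 2365 and 2251 in cKO against 2744 and 2720 in controls, 1.18-fold lower, and was at -0.36 on the log2 scale with both trends removed and -0.05 with relative log expression factors. Polrmt, the RNA polymerase of mitochondria, had 686 and 641 in cKO against 536 and 540 in controls, 1.23-fold higher, and -0.09 on the log2 scale with both trends removed. Nrf1, Ppargc1a and Tfam were not analysed here.

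Transcripts of the mitochondrial genome, which encodes the remaining subunits, went the other way. Of 13 genes 9 were listed. All 9 were lower in cKO, against 53.3% of all listed genes, and their median log2 fold change was -0.34. mt-Co1, a catalytic subunit of complex IV, had 219105 and 226077 normalised reads in cKO against 249407 and 256609 in controls, 1.14-fold lower. mt-Cytb, the cytochrome of complex III, had 51995 and 57851 in cKO against 69157 and 67595 in controls, 1.25-fold lower. mt-Nd4l, a small complex I subunit, had 115 and 71.2 in cKO against 175 and 182 in controls, and the lowest value on the log2(value + 1) scale, -0.97. mt-Atp6, of ATP synthase, had 606 and 486 in cKO against 976 and 1147 in controls, 1.94-fold lower (-0.96 ± 0.09 SE on the log2 scale, adjusted p of 1.84e-09 in limma). Neither mt-Nd4l nor mt-Atp6 was called with both trends removed (-0.24 and -0.20). Per kilobase they held only 314 and 802 normalised reads in cKO, against 144072 for mt-Co1. The cause of this gap was not tested. This contrast between the genomes was also a contrast in base composition, as these transcripts have a median GC content of 37.1%. Of listed genes of up to 40% GC that are not members, only 5.0% were higher in cKO. With both trends removed 7 of the 9 were called higher and 0 lower in limma, against 28.8% and 41.7% of listed genes, with a median of 0.17. With relative log expression factors 7 were called lower and 0 higher in limma, against 42% and 46.8% of listed genes. The median of the 9 was then -0.15, the log2 fold changes running from -0.78 for mt-Nd4l to 0.01 for mt-Co1.

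Enzymes of pyruvate entry and of the citric acid cycle feed the chain, and 13 of 19 on their list were in the table. Of these 11 were higher and 2 lower, against 46.7% and 53.3% of all listed genes, and their median log2 fold change was 0.31. The others, Dlat, Idh3a, Pc, Pdha1, Pdhb and Pdhx, were not analysed here. This list had about the same median with both trends removed, 0.33, with 10 higher and 1 lower, against 28.8% and 41.7% of listed genes. The difference between the lists was not tested. Idh2, the NADP-linked isocitrate dehydrogenase of mitochondria, had 7468 and 7532 normalised reads in cKO against 4304 and 4177 in controls, 1.77-fold higher (0.82 ± 0.04 SE on the log2 scale, adjusted p of 1.76e-15 in limma), and 0.33 with both trends removed. Idh3g and Idh3b, subunits of the NAD-linked enzyme, were 1.66-fold and 1.40-fold higher, and 0.42 and 0.50 on the log2 scale with both trends removed. Sucla2, a succinyl-CoA ligase subunit, was the lowest of the list, with 1220 and 1215 in cKO against 1542 and 1531 in controls, 1.26-fold lower, and -0.05 on the log2 scale with both trends removed. Of 46 assembly factors outside the name rule 12 were found in the table, 9 being higher and 3 lower, against 46.7% and 53.3% of listed genes. Their median was 0.31, and 0.00 with both trends removed. Cox14, needed to assemble complex IV, was highest, with 2468 and 2325 in cKO against 1701 and 1656 in controls, 1.43-fold higher, and Atpaf1, an ATP synthase assembly factor, was lowest, with 301 and 275 in cKO against 366 and 438 in controls, 1.39-fold lower. Neither was called with both trends removed (0.11 and -0.26 on the log2 scale).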

How the data were processed

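mRNA was measured by RNA sequencing in 2 cKO and 2 control libraries. The deposited table holds a normalised signal per gene, which is reads divided by a size factor. DESeq2 and the builds mm10 and GRCm38 are named per the submitters' processing notes. The aligner, counter, annotation and strand setting are not given in the sources used here, so reads from overlapping, antisense or pseudogene copies are uncertain. The log2 fold changes and p-values of the authors' deposited table were not used as results, apart from its adjusted p as the listing limit.

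From the steps between low values, 1 read was worth 0.8165 (cKO 1), 1.1866 (cKO 2), 1.0 (control 1) and 1.0181 (control 2), and 100.0% of 6940 values per library were whole within 0.01 reads. Listed reads are not the depth of a library. Precision is limited by 2 libraries per genotype and 2 residual degrees of freedom.

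limma 3.58.1 (trend, R 4.3.3) was fitted on log2(value + 1) over all listed genes with a value of at least 1 in 2 libraries, with genotype as the term. Fold changes on this scale understate those of low genes. p-values were adjusted by Benjamini-Hochberg over 17347 genes, the number behind the authors' adjustment, at a threshold of 0.05. Trends with GC content and length were splines with 5 degrees of freedom, removed per library, with GC content known for 99.9% of listed genes and all 68 members. They were estimated from the listed genes alone, all of them called, as were the relative log expression factors. The variance that limma shares between genes came from these called genes too, so its SEs and adjusted p-values can be too small. Trends over all measured genes may be less steep or steeper, so calls made after their removal depend on this choice of genes. Alternatives were edgeR 4.0.16 and DESeq2 1.42.0 on recovered reads, other scalings, pseudocounts and filters, a replicate block, and leaving out each library. The scripts were tested on simulated data. The members and lists were chosen with earlier results of these data known. Values per library are given for the 3 highest and 3 lowest members of each complex, core subunits and isoform pairs, and for the highest and lowest gene of each other list. A few other genes (Ndufc2, Ndufs4, mt-Cytb, mt-Atp6, Gabpb1, Yy1, Idh3g, Idh3b, Gfap, Acta2 and Kcnj8) were named after their values were seen. Of the listed members, 1 is counted with the others and its own values are not reported here.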

Additional observations from a re-analysis of the deposited data

How the results depend on the processing

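Under 17 alternatives, 22 of 68 members kept their call and direction in every one, and 32 changed direction in at least one, in each case with the GC or the GC and length trends removed. Members called higher and lower, 67 and 1, became 37 and 7 with the GC trend removed, 24 and 17 with both trends removed, and 25 and 17 with the replicate block and both trends removed. The median log2 fold change of members, 0.32, became 0.14, 0.018 and 0.018 under these alternatives, 0.51 with relative log expression factors, which shift all listed genes by 0.19, and 0.39 with TMM. Leaving out 1 library gave 63 to 67 higher, 1 lower and a median of 0.30 to 0.33. Calls were lost without cKO library 2 (Ndufv2 and Atp5j), without control library 2 (those and Cox6b1 and Cox7c) or without control library 1 (Ndufb9), fits in which the lone library is assumed to vary like the other genotype. DESeq2 gave 66 higher and 1 lower, the call of Cox7c being lost. The replicate block gave 67 higher and 1 lower and changed no call. What the replicate numbers mean is not given in the labels. Deviations of same-numbered libraries had a Pearson correlation of 0.013 across genes. With 2 libraries per genotype this cannot show whether they were paired. Without the members that overlap another gene's exons by over 10%, an alternative chosen after seeing the data, 58 of 59 were higher. Log2 fold changes that changed direction on removal of the GC trend, of the members reported singly and of medians, were 0.404 for the median of mitochondrial genome genes, -0.162 for Cox6a1, -0.038 for Cyc1, -0.085 for Cox4i1, -0.132 for Cox8a, -0.155 for Atp5a1, -0.081 for Atp5d, -0.003 for Ndufv1, -0.014 for Sdhb, -0.013 for Uqcr11, -0.028 for Ndufb10, -0.304 for Atp5g2, -0.129 for Ndufa8, -0.012 for Ndufv3, -0.045 for Cox6b1, 0.125 for Ndufaf4, -0.142 for Ndufb7, -0.077 for Cox7a2, -0.143 for Ndufb9, -0.086 for Ndufaf3, -0.011 for Atp5j. With both trends removed they were -0.027 for the median of complex I, -0.020 for the median of complex IV, 0.173 for the median of mitochondrial genome genes, -0.141 for Cox6a1, -0.065 for Ndufa13, -0.142 for Cyc1, -0.228 for Cox4i1, -0.056 for Cox8a, -0.223 for Atp5a1, -0.211 for Atp5d, -0.102 for Ndufs7, -0.113 for Ndufv1, -0.055 for Ndufb11, -0.161 for Sdhb, -0.061 for Atp5c1, -0.063 for Ndufs8, -0.027 for Ndufa10, -0.128 for Ndufs3, -0.176 for Ndufb10, -0.042 for Cox7a2l, -0.093 for Ndufa11, -0.119 for Ndufa6, -0.410 for Atp5g2, -0.214 for Ndufa8, -0.157 for Ndufv3, -0.102 for Cox6b1, 0.021 for Ndufaf4, -0.119 for Ndufb7, -0.197 for Cox7a2, -0.050 for Ndufaf8, -0.260 for Ndufb9, -0.239 for Ndufaf3, -0.111 for Atp5j, and the replicate block with both trends removed gave the same values. The cause was not tested. Low members, such as Cox7a1, have the largest SEs in limma, which draws part of each SE from other listed genes of like level.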
